A study of Mus musculus with 3 samples.

Results

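Common lymphoid progenitors (CLP) and lymphoid-primed multipotent progenitors (LMPP) are neighbouring stages of blood formation in mouse bone marrow, and the comparison of the CLP with the LMPP single-cell library is described here. Every cell of each library that had at least 500 detected genes and at most 10% of its unique molecular identifiers (UMIs, which count original RNA molecules) from mitochondrial genes was used. This kept 948 of 979 CLP barcodes and 579 of 599 LMPP barcodes, so that 1527 of the 2633 kept cells of the series entered the comparison. The other 1106 cells form a pro-B library, which is quoted only as a reference point further along the B lineage. All cells came from C57BL/6J bone marrow and were captured on the 10x Chromium system after flow sorting. The LMPP sort took cells positive for cKit, Sca1 and Flt3 that lacked IL7Ra and B220. For CLP the sort asked for cKit, Sca1 and IL7Ra, accepted Flt3 at either level, and again left out B220-positive cells. The pro-B sort took B220-positive, IL7Ra-positive, cKit-positive cells with neither Sca1 nor Flt3. No transgene, drug or time course separates the groups, and the number of animals behind each sort is not given in the sources used here.

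LMPP are multipotent cells that have lost most capacity to make red cells and platelets but can still give lymphoid and myeloid cells. CLP have largely turned away from the myeloid fates, carry the receptor for interleukin 7, and give B cells, T cells, innate lymphoid cells and some dendritic cells. The step towards B cells is driven by the E proteins and by the transcription factors Ebf1, Foxo1 and Pax5, which switch on the pre-B receptor and the recombinase that assembles antigen receptor genes. Stem cell factors such as Hlf, Mecom, Meis1 and Gata2 are known to be turned down along the same path.

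There was 1 library for each population, so no test was possible, and the difference between populations and the difference between 2 droplet runs cannot be told apart. For each library the UMIs of a gene were added up across its kept cells and expressed per 1000000 UMIs (CPM). Each log2 ratio of CLP over LMPP is followed by its exact 95% interval for 2 Poisson counts. These intervals, and those of shares of cells, cover counting error only. A sum does not separate more expressing cells from more RNA in each cell, so shares of cells follow further down. CLP gave 5967352 UMIs (median 6258.5 a cell) and LMPP 4014657 (median 6789 a cell). CLP had more shallow cells, with 267 of 948 under 4000 UMIs against 59 of 579 in LMPP, and a cluster of 236 CLP cells had a median of 3153. For a ratio, a gene at 0 UMIs was set to a floor of 3 UMIs, which is 0.503 CPM in CLP and 0.747 CPM in LMPP. The libraries shared 3 barcodes. A doublet caller marked 14 CLP and 30 LMPP barcodes, and all were kept.

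The labels were checked first on Ebf1, Rag1, Prtn3 and Hlf. Ebf1 (chr11:44617317-45008091, plus strand, GRCm38) stood at 472 CPM in CLP, 7.97 in LMPP and 3567 in pro-B cells. Rag1 (chr2:101638282-101649501, minus strand) stood at 58.8 CPM in CLP, 1.99 in LMPP and 73.0 in pro-B cells. Both were near absent from the library labelled LMPP. Prtn3 (chr10:79874476-79883174, plus strand) stood at 7.71 CPM in CLP and 299.9 in LMPP. Hlf (chr11:90336536-90390895, minus strand) stood at 7.37 CPM in CLP and 127 in LMPP. All 4 genes were on the side that the label of each library calls for. Of the genes behind the sort, Il7r stood at 141 CPM in CLP and 3.74 in LMPP, Kit at 28.3 and 85.2, Ly6a, which encodes Sca1, at 41.1 and 114, and Flt3 at 300.5 and 279. Il7r, Kit and Ly6a encode gate proteins, so the sort itself can set their differences. The Y-linked transcripts Eif2s3y (37.9 CPM in each library) and Ddx3y (41.2 in CLP, 34.4 in LMPP) were present in both, and Xist had no UMI in either.

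Most of the transcriptome lay close to the diagonal, and a small number of strong genes left it. Of 7302 genes with a mean of 10 CPM or more, 6831 (93.55%) were within 2-fold and the median log2 ratio was -0.01. A further 258 genes (3.53%) were at least 2-fold higher in CLP and 213 (2.92%) at least 2-fold lower. A 4-fold limit was applied to the 2570 genes that reached 50 CPM in at least 1 library: 35 (1.36%) were at least 4-fold higher in CLP and 23 (0.895%) at least 4-fold lower. The shares of 3.53% and 2.92% are the background against which each count of list members at 2-fold is to be read. The 35 higher genes, which include the processed pseudogenes given at the end, together took 0.909% of the CLP UMIs and 0.124% of the LMPP UMIs. The 23 lower genes took 0.0508% of the CLP UMIs and 0.390% of the LMPP UMIs. Among the genes just inside the 4-fold line were Dntt (4.45-fold higher) and Ctla2b (4.41-fold lower). Just outside it were Prkca (3.93-fold higher), Tfrc (3.90-fold higher), Ninj1 (3.90-fold lower) and Ikzf2 (3.83-fold lower). The scatter of levels places each gene, and the plot of ratios gives 56 of the 58 genes past the line with their counting intervals.

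**Figure D1:**
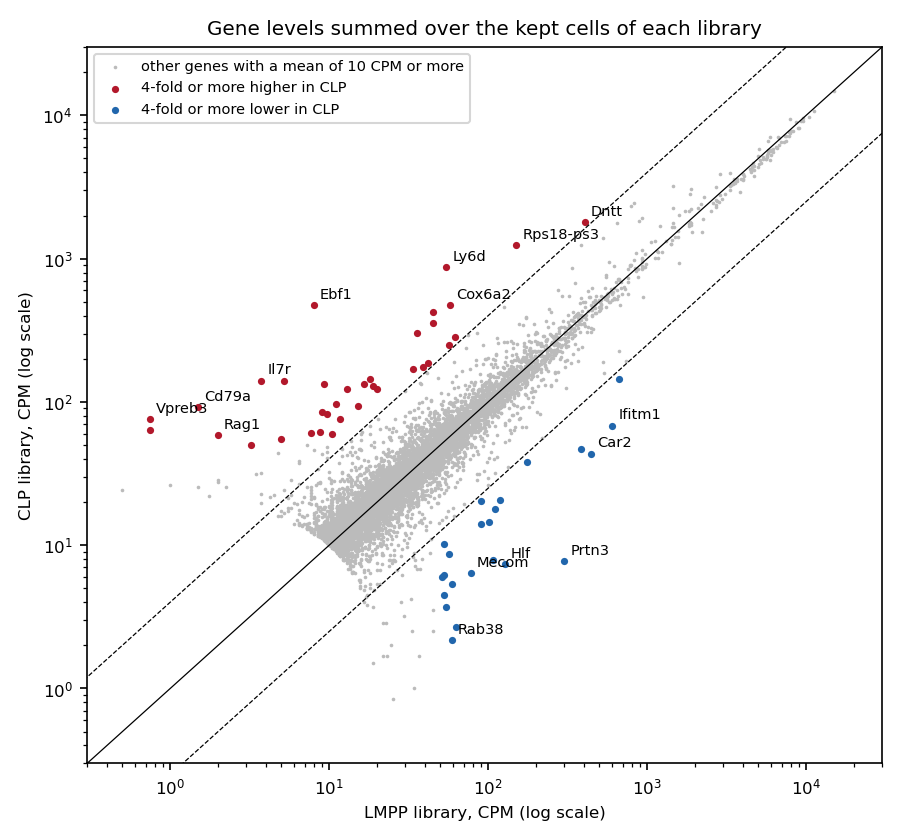
CPM of each gene in LMPP (x axis, log scale) against CPM in CLP (y axis, log scale), 1 point a gene, with the 35 genes at least 4-fold higher and the 23 at least 4-fold lower in colour and the 4-fold lines dashed; genes with no UMI in a library are not drawn, and grey points beyond the lines are under 50 CPM in both libraries. The cloud follows the diagonal, with Ebf1 far above it and Prtn3 and Hlf far below.

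**Figure D2:**
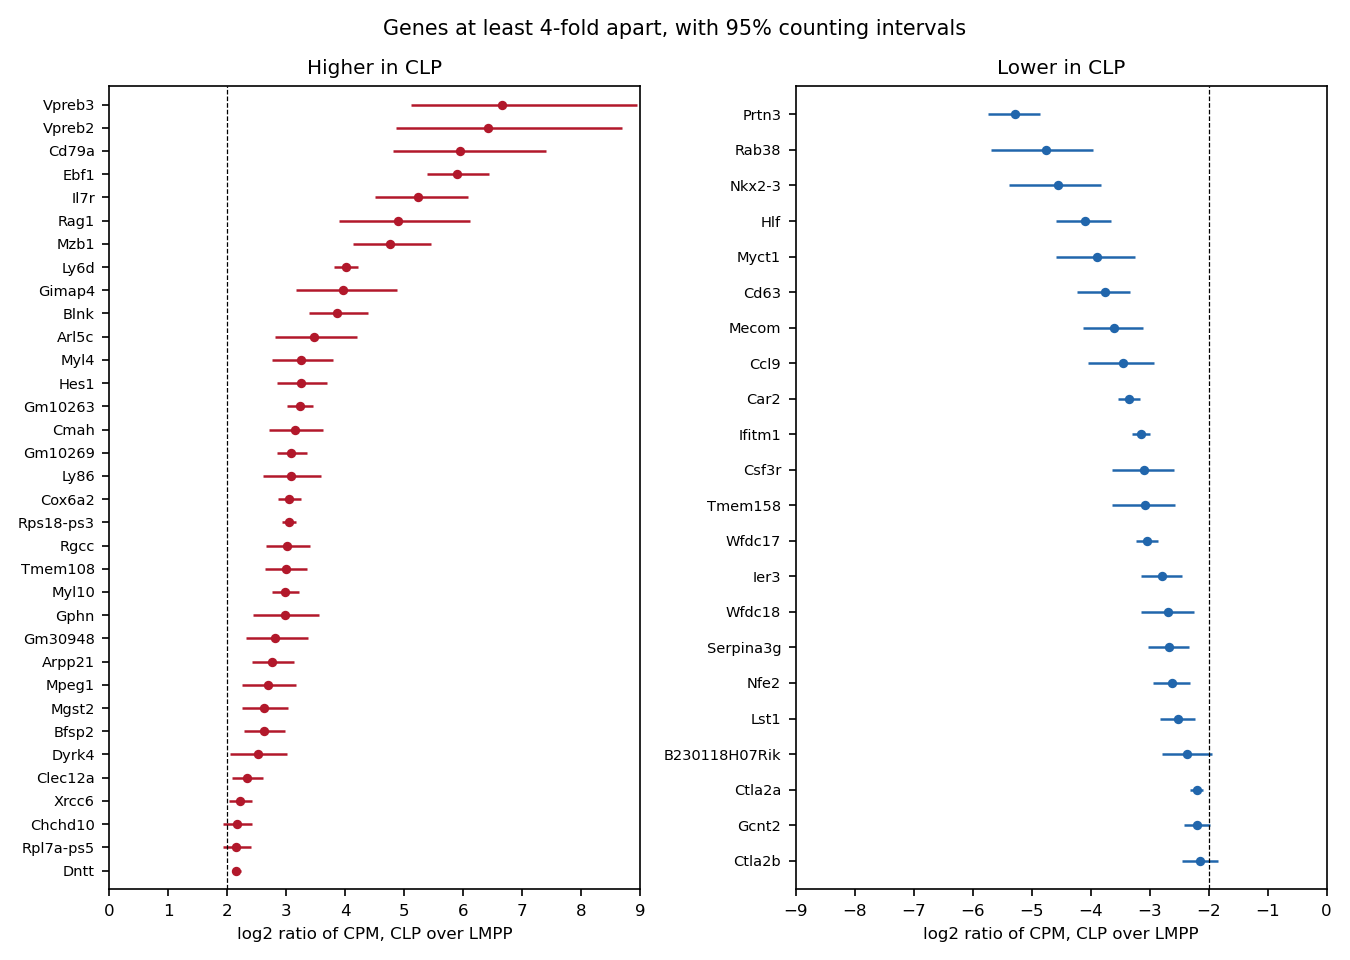
Log2 ratio of CLP over LMPP for 56 of the 58 genes at least 4-fold apart, each with its exact 95% counting interval (horizontal bar). Ratios run from 6.66 for Vpreb3 to -5.28 for Prtn3, and the widest bars belong to the genes with the fewest LMPP UMIs.

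Genes of the pre-B receptor held the highest ratios of CLP over LMPP. Vpreb1 and Vpreb2 with Igll1 form the surrogate light chain, Vpreb3 is a related chaperone of the heavy chain, and Cd79a and Cd79b carry the receptor's signal. Vpreb3 stood at 75.7 CPM in CLP against 3 UMIs (0.747 CPM) in LMPP, a log2 ratio of 6.66 (5.11 to 8.95), and at 3307 CPM in pro-B cells. Vpreb2 stood at 63.5 CPM in CLP, 0.747 in LMPP and 306 in pro-B cells, a log2 ratio of 6.41 (4.85 to 8.69). Cd79a stood at 92.2, 1.49 and 1851 CPM in CLP, LMPP and pro-B cells, a log2 ratio of 5.95 (4.82 to 7.40). The CLP level of Vpreb3 and Cd79a was thus far above LMPP and far below pro-B. Vpreb1 (43.7 CPM in CLP, 4.73 in LMPP, 3.21 on the log2 scale) and Igll1 (24.3 against 0.498) showed the same order. Both rested on few cells. Igll1 was seen in 35 CLP cells, with 66.2% of its UMIs in the top 5, and had 2 UMIs in LMPP. Vpreb1 was seen in 108 CLP cells, with 30.7% of its UMIs in the top 5. The list of pre-B receptor genes and B cell surface markers had 9 measured members. Vpreb1, Vpreb2, Vpreb3, Igll1 and Cd79a (5 genes, 55.6%) were at least 2-fold higher and none was lower. The list's median log2 ratio was 3.21, beside -0.01 over all genes, and it was 2.15 in cells with few cycle UMIs and 0.24 over the 3 members with a mean of 50 CPM or more. Cd79b (53.0 CPM in CLP, 29.6 in LMPP), the adhesion genes Cd24a (228 and 193) and Spn (71.2 and 81.5), and the inhibitory receptor Cd72 were within 2-fold. Cd22 and Ms4a1 were among 7 members too low to measure.

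Signalling genes that sit beneath that receptor were split. Blnk, the adaptor that links the receptor's kinases to calcium release, stood at 134 CPM in CLP, 9.22 in LMPP and 582 in pro-B cells (log2 ratio 3.86, 3.39 to 4.38). Mzb1, an endoplasmic reticulum protein of B cells and plasma cells, stood at 141, 5.23 and 1313 CPM (4.75, 4.13 to 5.45). Blk, a Src family kinase of B cells, stood at 26.5, 0.996 and 18.2 CPM. These 3 were the only higher genes among 14 measured members. The adaptors Dapp1 (35.0 CPM in CLP, 133 in LMPP) and Lcp2 (5.70 and 15.4) were at least 2-fold lower, and the median of the list was 0.42.

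Among 15 measured transcription factors of the B lineage, 4 (26.7%) were at least 2-fold higher, 1 was lower and the median log2 ratio was 0.69. Ebf1, a pioneer factor of the B lineage, had a log2 ratio of 5.89 (5.39 to 6.44). It was detected in 540 of 948 CLP cells and in 6 of 579 LMPP cells, and 5 LMPP cells held 96.9% of the 32 LMPP UMIs. Foxo1, which acts with Ebf1 and on the recombinase genes, stood at 38.5 CPM in CLP, 6.48 in LMPP and 84.4 in pro-B cells (2.57, 1.99 to 3.22). Ets1 (43.4, 8.97 and 96.4 CPM) and Bach2, a repressor of myeloid and plasma cell genes (26.1, 8.22 and 77.2 CPM), followed the same order. These 4 factors rank LMPP, CLP, pro-B from low to high. Ikzf2, an Ikaros family member, went the other way at 15.9 CPM in CLP, 61.0 in LMPP and 2.17 in pro-B cells. The factors already used by multipotent cells were closer, with Bcl11a at 222 CPM in CLP and 201 in LMPP, Mef2c at 494 and 380, Ikzf1 at 207 and 129, Tcf4 at 212 and 141, and Myb at 184 and 93.4. Pax5, which commits cells to the B lineage, was below the limit for a ratio: 103 UMIs in 79 CLP cells (17.3 CPM), none in LMPP and 103 CPM in pro-B cells. Against the LMPP floor this is at least 23.1-fold higher.

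Genes of antigen receptor recombination differed by enzyme. Rag1, the catalytic subunit of the recombinase, was seen in 224 CLP and 5 LMPP cells, a log2 ratio of 4.88 (3.89 to 6.11). Rag2 stood at 37.5 CPM in CLP, 6.48 in LMPP and 79.1 in pro-B cells (2.54, 1.95 to 3.18). Dntt, the polymerase that adds untemplated bases at joints, was abundant on both sides, at 1803 CPM in CLP, 406 in LMPP and 1354 in pro-B cells (2.15, 2.08 to 2.23). It was detected in 919 CLP and 376 LMPP cells. Xrcc6, the Ku70 subunit of the end-joining clamp, stood at 286, 61.8 and 257 CPM (2.21, 2.02 to 2.41). Its partner Xrcc5, or Ku80, stood at 11.1 CPM in CLP and 12.95 in LMPP, with an interval of the log2 ratio from -0.77 to 0.33. The 2 subunits of 1 dimer thus differed in their ratios. Altogether 4 of 11 measured genes (36.4%) were at least 2-fold higher, none was lower and the median was 0.38. Lig4, Prkdc, Dclre1c, Nhej1 and Polm were too low to measure.

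The early lymphoid list had the most members at least 2-fold higher by count, though not by share. Of 19 measured members, 9 (47.4%, beside 3.53% of all genes) were at least 2-fold higher in CLP, 1 was lower and the median log2 ratio was 0.81. Ly6d, a surface protein that marks the B-lineage-biased share of CLP, stood at 873 CPM in CLP, 54.3 in LMPP and 120 in pro-B cells (4.01, 3.81 to 4.21). In LMPP 79.4% of its UMIs came from 5 cells. In CLP it was highest, at 4904 CPM, in a cluster of 61 cells that carried 6 of 9 plasmacytoid dendritic markers. Arpp21, a phosphoprotein gene known from lymphoid precursors and neurons, stood at 128, 18.9 and 103 CPM. Ly6d was highest in CLP of the 3 libraries, whereas Arpp21 was alike in CLP and pro-B cells. Evl, an actin regulator (135 and 37.4 CPM), the T cell kinase Lck (137 and 59.0), the cytokine subunit Il12a (343 and 167) and the chromatin organiser Satb1 (264 and 131) were also higher. The lower member was Ltb, the membrane lymphotoxin, at 67.2 CPM in CLP and 173 in LMPP. Flt3 (log2 ratio 0.11), Cd27 (309 and 303 CPM) and Sox4 (724 and 654) hardly differed, which places these 3 lymphoid priming genes at equal levels in both libraries.

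Start-site sequence was read for the 4-fold genes from the RefSeq tables, which give 250 bases before each gene's start (GRCm38.p6). A promoter was found for 24 of the 30 named higher genes and for 16 of the 22 named lower genes, and a gene counted once however many windows it had. The Runx core, the 6 letters TGTGGT read on both strands, lay in a window of 8 of the 24 higher genes (33.3%) and 2 of the 16 lower genes (12.5%). It lay in 15.9% of all genes of the table and in 13.4% of the genes with 50 CPM or more. Runx1 binds this core and is needed for lymphoid development. By windows the higher genes had it in 10 of 37, but Arpp21 alone gave 9 windows and 3 of those matches. Of its 3 matching windows 2 overlap and hold the same match, and some of its other windows overlap as well. The other motifs, also read on both strands and free to overlap, are given as shares of higher genes, lower genes, all genes and genes with 50 CPM or more. The E-box CANNTG lay in 75%, 68.75%, 69.3% and 60.04%, and the EBF core CCCNNGGG in 12.5%, 18.75%, 13.4% and 18.03%. The ETS core GGAAGT lay in 37.5%, 37.5%, 22.2% and 30.7%, and the GATA core GATAA in 37.5%, 18.75%, 25.5% and 17.98%. The C/EBP letters TTGCNNAA lay in 16.7%, 0%, 10.8% and 9.21%. Against genes with 50 CPM or more, the letters of every motif read here except the EBF core were thus more frequent by gene among the 24 higher genes. Windows a gene differed, with 37 for the 24 higher genes and 2577 for the 1997 genes with 50 CPM or more. By windows the ETS core was not more frequent, at 24.3% against 26.1%. A match describes the letters of a window and not the binding of a factor. The 5 windows that held the Runx core and overlapped no annotated exon are shown from 5′ to 3′ on the gene's strand, with the core in capitals; Vpreb3, Rag1, Arpp21 and Bfsp2 are higher genes and Serpina3g is a lower gene, shown for contrast.
Vpreb3 (chr10:75948050-75948299, plus strand): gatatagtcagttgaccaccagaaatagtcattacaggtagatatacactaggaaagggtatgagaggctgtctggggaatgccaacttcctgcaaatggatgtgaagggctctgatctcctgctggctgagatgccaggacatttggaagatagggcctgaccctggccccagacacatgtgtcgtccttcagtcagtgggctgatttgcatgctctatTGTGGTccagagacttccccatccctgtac
Rag1 (chr2:101649533-101649782, minus strand): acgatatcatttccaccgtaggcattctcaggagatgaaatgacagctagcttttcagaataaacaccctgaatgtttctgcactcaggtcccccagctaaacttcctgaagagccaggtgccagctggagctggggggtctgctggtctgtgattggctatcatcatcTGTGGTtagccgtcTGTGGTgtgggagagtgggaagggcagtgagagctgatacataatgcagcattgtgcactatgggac
Arpp21 (chr9:112217352-112217601, minus strand): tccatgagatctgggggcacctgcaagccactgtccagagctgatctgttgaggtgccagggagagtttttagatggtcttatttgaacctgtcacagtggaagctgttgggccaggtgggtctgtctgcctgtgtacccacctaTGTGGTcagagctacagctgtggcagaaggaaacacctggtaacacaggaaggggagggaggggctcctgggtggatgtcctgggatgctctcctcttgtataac
Bfsp2 (chr9:103449177-103449426, minus strand): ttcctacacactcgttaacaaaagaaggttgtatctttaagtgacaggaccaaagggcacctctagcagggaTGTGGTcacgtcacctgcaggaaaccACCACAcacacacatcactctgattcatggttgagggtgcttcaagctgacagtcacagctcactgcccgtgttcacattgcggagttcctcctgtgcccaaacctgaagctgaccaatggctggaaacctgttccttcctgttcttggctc
Serpina3g (chr12:104235897-104236146, plus strand): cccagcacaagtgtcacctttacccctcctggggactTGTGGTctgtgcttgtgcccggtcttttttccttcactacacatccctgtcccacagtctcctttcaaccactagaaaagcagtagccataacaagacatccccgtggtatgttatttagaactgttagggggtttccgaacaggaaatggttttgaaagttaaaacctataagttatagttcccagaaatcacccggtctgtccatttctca
The Rag1 window held the core at positions -81 and -67 from the start, and the Bfsp2 window at -178 and -152. It lay at -30 in Vpreb3, at -105 in Arpp21 and at -213 in Serpina3g.

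Another set of the 4-fold higher genes is known from dendritic and other antigen-presenting cells. Cox6a2, a cytochrome c oxidase subunit typical of plasmacytoid dendritic cells and muscle, stood at 476 CPM in CLP, 57.5 in LMPP and 0.9502 in pro-B cells (3.05, 2.85 to 3.25). Ly86, the MD-1 partner of an innate receptor, stood at 82.3, 9.71 and 21.4 CPM. Mpeg1, the pore protein perforin-2, stood at 75.6, 11.7 and 0.407 CPM, and Clec12a, an inhibitory lectin receptor, at 171, 33.9 and 5.97 CPM. These 4 were lower in pro-B cells than in CLP. Irf8, a factor of B and dendritic cells, stood at 461 CPM in CLP and 125 in LMPP, and Siglech, a receptor of plasmacytoid dendritic cells, at 49.9 and 7.22. In the dendritic list 8 of 14 measured genes (57.1%) were at least 2-fold higher and none was lower, with a median of 1.05. CLP held a cluster of 61 cells led by Ly6c2 and Siglech, with 6 of 9 plasmacytoid dendritic markers. When clusters named dendritic-like or innate-like were dropped from both libraries, the list's median was 0.87, and when they were dropped from CLP alone, a choice added after seeing the data, it was 0.51. The plasmacytoid dendritic markers summed to 846 CPM in CLP and 350 in LMPP, with 2 of 9 at 0 in each. Over clusters of at least 20 cells Cox6a2 stood between 179 and 1868 CPM in CLP and between 3.65 and 628 in LMPP, so the ranges overlapped. All 35 genes that were 4-fold higher kept that call when these clusters were dropped from both libraries, or from CLP alone. Irf8 passed the 4-fold line when they were dropped from both, but not when they were dropped from CLP alone. The LMPP cluster dropped as dendritic-like, of 21 cells, carried 3 of 9 plasmacytoid dendritic markers and also 3 of 10 monocyte markers. How much of each ratio came from dendritic-like cells was not tested.

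The remaining higher genes have no common role. Myl4 (85.5 CPM in CLP, 8.97 in LMPP) and Myl10 (357 and 45.1) encode myosin light chains. Cmah (96.9 and 11.0), the enzyme that hydroxylates sialic acid, was at 3.26 CPM in pro-B cells. Gimap4 (50.1 and 3.24), just above the 50 CPM limit and lost from the 4-fold count without the cells called doublets, is a GTPase of lymphocytes, and Gimap7 (52.3 and 19.2) and Gimap9 (107 and 40.4) of the same cluster were also at least 2-fold higher, while Gimap1, Gimap5 and Gimap6 were not. Rgcc, a cell cycle regulator (132 and 16.4), Gphn, the scaffold gephyrin (60.5 and 7.72), Mgst2, a microsomal glutathione transferase (93.8 and 15.2), and the kinase gene Dyrk4 (59.8 and 10.5) were 5.72-fold to 8.05-fold higher. Bfsp2, a filament protein best known from the lens, stood at 123, 19.9 and 722 CPM in CLP, LMPP and pro-B cells, and Chchd10, a mitochondrial protein, at 175, 38.9 and 1956 CPM. These and Arl5c, an ARF-like GTPase (54.8, 4.98 and 264 CPM), were higher still in pro-B cells. Tmem108 (144 and 18.2 CPM) and the unnamed model Gm30948 (61.3 and 8.72) belong to the same set, as do Hes1 and the 4 processed pseudogenes given at the end.

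Signals that CLP are known to receive were read from their targets. The Notch target Hes1, a repressor of transcription, stood at 123 CPM in CLP, 12.95 in LMPP and 219.9 in pro-B cells (3.25, 2.84 to 3.68). Dtx4 (18.3 and 5.73 CPM) was the other of 2 genes at least 2-fold higher among 8 measured Notch genes, whose median was 0.31 but -0.30 over the 5 with a mean of 50 CPM or more. The receptor Notch1 stood at 157 and 89.4 CPM and Notch2 at 38.9 and 29.9, while Hes5, Nrarp, Dtx1 and Ptcra were too low to measure. Of the interleukin 7, Jak and Stat5 genes, 6 of 18 (33.3%) were at least 2-fold higher and 1 was lower, with a median of 0.17. Besides Il7r they were the feedback inhibitors Socs2 (28.5 and 5.73 CPM), Cish (30.8 and 13.2) and Socs1 (41.6 and 19.7), the survival gene Bcl2 (199.75 and 95.9) and the cyclin Ccnd3 (261 and 126). The kinase Jak3 was lower, at 8.04 and 16.9 CPM, and Jak1, Pim1 and Myc were within 2-fold. Of 18 Foxo and PI3K genes, 5 were at least 2-fold higher and none was lower, with a median of 0.42. Among the higher ones were Foxo1, the kinase subunit Pik3cd (61.5 and 24.7), the phosphatase Inpp5d (182 and 83.9) and Btg1 (353 and 157). Inpp5d acts on the lipid signal that Pik3cd makes, and their log2 ratios were 1.11 and 1.32.

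T and innate lymphoid genes were also higher as counted, with 6 of 12 measured genes (50%) at least 2-fold higher, none lower and a median of 0.87. Id2, the inhibitor of E proteins in innate lymphoid cells, stood at 46.6 CPM in CLP and 11.96 in LMPP. Gata3 stood at 16.4 and 6.48 CPM, Klrd1 at 21.3 and 5.48, and Il18r1 at 23.3 and 7.72. A CLP cluster of 13 cells carried 5 of 11 natural killer and innate markers, with Gata3 and Rora at its head. When clusters named innate-like or dendritic-like were dropped from both libraries, the log2 ratio of Gata3 went from 1.34 to -0.75 and the median of the list was 0.55. When they were dropped from CLP alone these were -0.68 and 0.41. Summed markers of these cells stood at 308 CPM in CLP and 217 in LMPP, with 1 and 3 of 11 at 0, and mature T cell markers at 10.6 and 3.99 CPM.

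On the lower side the transcription factors of stem and multipotent cells formed the largest block. Of 24 measured, 11 (45.8%, beside 2.92% of all genes) were at least 2-fold lower in CLP, none was higher and the median log2 ratio was -0.83, or -0.41 over the 13 with a mean of 50 CPM or more. Hlf had a ratio of -4.10 (-4.58 to -3.66), was detected in 33 CLP and 275 LMPP cells, and had no UMI in pro-B cells. Nkx2-3, a homeobox factor, stood at 2.68 CPM in CLP and 63.0 in LMPP (-4.55, -5.38 to -3.83). Mecom, which maintains stem cells, stood at 6.37 and 77.5 CPM (-3.60, -4.13 to -3.12). These 3 factors were each more than 10-fold lower. Gata2 fell short of the 50 CPM needed for the 4-fold count but stood at 0.838 CPM in CLP and 25.2 in LMPP (-4.91, -6.56 to -3.64), and Hoxa10 at 2.85 and 22.9. Nfe2, a factor of red cell and platelet precursors, stood at 17.9 and 110.35 CPM. Factors that CLP kept at a sizeable level were Lmo2 (194 and 737 CPM), Meis1 (60.3 and 139) and Hoxa9 (66.4 and 162), all at least 2-fold lower. Lyl1 (161 and 214 CPM), Hhex (161 and 162), Zbtb20 (106 and 97.9) and Mn1 (60.5 and 39.4) were within 2-fold. The stem programme was thus uneven, from Gata2 near absence to Hhex at the same level.

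Surface genes of the same cells were lower in 8 of 17 measured cases (47.1%) and higher in 1, with a median of -0.86, or -0.18 over the 10 with a mean of 50 CPM or more. Myct1 stood at 3.69 CPM in CLP and 54.5 in LMPP (-3.89, -4.59 to -3.25), and the tetraspanin Cd63 at 7.88 and 107. Cd34 remained high on both sides, at 191 CPM in CLP and 524 in LMPP, and was absent from pro-B cells. Procr, the endothelial protein C receptor that marks stem cells, had 21.7 CPM in 78 LMPP cells and no UMI in CLP, at least 43.1-fold lower. Cd93, also known from early B cell precursors, was the higher one, at 257 and 116 CPM. Egfl7 (494 and 409), Cd47 (771 and 549) and Ly6e (944 and 579) were within 2-fold.

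**Figure D3:**
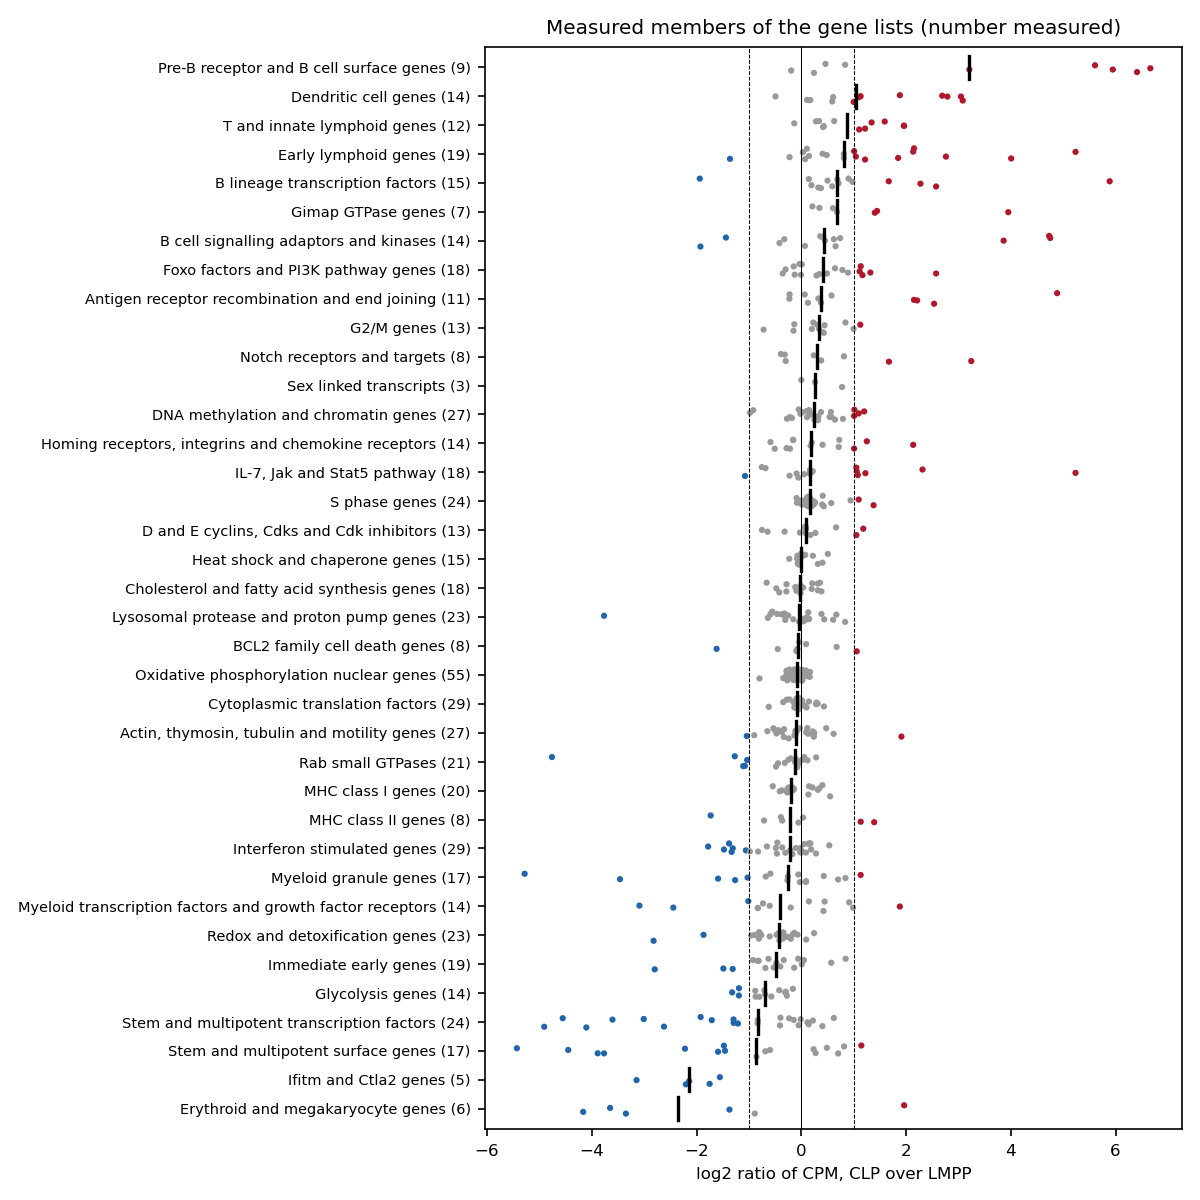
Log2 ratio of CLP over LMPP for each measured member of the gene lists (points) and the median of each list (vertical tick), with a line at 0, dashed lines at 2-fold, and Procr at its bound. The pre-B receptor list has its median at 3.21, the stem transcription factors at -0.83 and the Ifitm and Ctla2 genes at -2.14, while lists such as oxidative phosphorylation and translation are tight around 0.

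Myeloid genes did not move as a block. Prtn3, the granule protease proteinase 3, had a log2 ratio of -5.28 (-5.74 to -4.86) and was detected in 33 CLP and 410 LMPP cells. Its usual companion Elane had no UMI in CLP or LMPP, nor had the neutrophil genes Lcn2 and Retnlg. Elane had none in pro-B cells either. Whether annotation or filtering of the deposited counts affected Elane is not known, so its lack of UMIs may not be a lack of RNA. The chemokine Ccl9 stood at 5.36 CPM in CLP and 59.0 in LMPP, Ccl3 at 84.6 and 203, the lysozyme gene Lyz2 at 76.6 and 156, and Anxa1 at 14.4 and 43.3. With Prtn3 these are the 5 of 17 measured granule and secretory genes (29.4%) at least 2-fold lower. Plac8, abundant in both, was higher, at 3203 CPM in CLP and 1461 in LMPP, and the list median was -0.26. Srgn (523 and 627 CPM), Cst3 (342 and 322) and Igfbp4 (281 and 336) hardly differed. Of 14 myeloid factors and receptors, Cebpa, the factor that starts granulocyte fate (6.87 and 37.4 CPM), Csf3r, the G-CSF receptor (6.20 and 52.8), and Il6ra (9.89 and 19.9) were lower, and Irf8 was higher. Their median was -0.40, but 0.11 over the 4 with a mean of 50 CPM or more. Spi1, or PU.1, which both fates need, was within 2-fold at 108 and 193 CPM, and Runx3 at 88.8 and 66.3.

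Most measured genes of red cells and platelets were lower in CLP. Hbb-bt, an adult beta globin, stood at 2.51 CPM in CLP and 45.1 in LMPP (-4.16, -5.03 to -3.40). It was found in 63 LMPP cells, and the other globins of LMPP were close to none, with Hbb-bs at 4.98 CPM and Hba-a1 at 1.25. Over LMPP clusters of at least 20 cells Hbb-bt ran from 5.10 to 82.9 CPM, the highest in the cluster led by Hlf, Myct1 and Mecom. Car1 and Epor, markers of red cell precursors, had no UMI in LMPP. Apoe (1.51 and 18.9 CPM), Vamp5 (38.0 and 98.4) and Car2, the carbonic anhydrase (43.6 and 444), were the other lower genes among 6 measured. The transferrin receptor Tfrc was higher, at 53.5 and 13.7 CPM. Car2 was also present in pro-B cells, at 165 CPM.

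Members of 2 small gene families were lower together. All 5 measured Ifitm and Ctla2 genes were at least 2-fold lower, with a median of -2.14. Ifitm1 stood at 68.2 CPM in CLP and 604 in LMPP (-3.15, -3.30 to -2.99), Ifitm2 at 158 and 532, and Ifitm3 at 227 and 667; these membrane proteins block virus entry and are high in stem cells. Ctla2a (145 and 667 CPM) and Ctla2b (20.4 and 90.2) are inhibitors of cysteine proteases, and Ctla2b left the 4-fold count in cells with few cycle UMIs. Genes of such families share sequence, so reads may be split between copies. Pro-B cells kept 279 CPM of Ifitm2 and 4.21 of Ifitm1, so members of the family were kept there to different extents. Wfdc17 (46.6 and 385) and Wfdc18 (8.71 and 56.3), small secreted inhibitors, and the serpin Serpina3g (14.1 and 89.9) were also among the 4-fold lower genes.

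The other lower genes included Rab38, a GTPase of lysosome-related organelles (2.18 CPM in CLP and 59.0 in LMPP) and Tmem158 (6.03 and 51.1). Gcnt2, a glycosyltransferase (38.2 and 175), Lst1 (20.6 and 119) and the immediate early gene Ier3 (14.6 and 101.4) followed, with the model B230118H07Rik (10.2 and 52.6). Of 21 measured Rab genes, 5 (23.8%) were at least 2-fold lower, namely Rab38, Rab8b, Rab31, Rab32 and Rab37, and none was higher. The widely used Rab2a, Rab7, Rab10 and Rab14 differed by at most 0.12 on the log2 scale. Gcnt2 and Rab38 were absent from pro-B cells.

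Interferon stimulated genes were lower in 6 of 29 measured cases (20.7%) and higher in none, with a median of -0.21; Oasl2 (15.8 and 54.1 CPM) was the lowest and Bst2 (196 and 177) was level. An LMPP cluster of 13 cells was led by Ifit3, Ifit1 and Isg15. Class II histocompatibility genes were split, with H2-Aa lower (7.21 and 23.9 CPM) and the regulators H2-Ob (168 and 76.7) and H2-DMb2 (19.6 and 7.47) higher among 8. None of 20 class I genes reached 2-fold, and their median was -0.20. Immediate early genes had 3 lower members of 19 (Ier3, Klf6 and Dusp1) and a median of -0.48, with Fos at 194 and 368 CPM and Jun at 300.3 and 202.

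Metabolic lists were nearly level apart from glycolysis. Of 14 glycolysis genes, 3 (21.4%) were lower by 2-fold or more and none was higher, with a median of -0.70. Aldoa stood at 124 CPM in CLP and 310 in LMPP, Hk2, the first enzyme's inducible form, at 23.1 and 52.8, and Ldhb at 29.2 and 66.5. Gapdh (569 and 698) and Ldha (211 and 262) were closer. None of 55 nuclear oxidative phosphorylation genes reached 2-fold, and their median was -0.07; Ndufa4 was the most unequal at 540 and 939 CPM. None of 18 lipid synthesis genes, 15 chaperones and 29 translation factors reached 2-fold either, with medians of -0.03, -0.01 and -0.08. Of 23 redox genes, Mgst1 (4.02 and 28.4) and Gstm1 (19.3 and 70.2) were lower, with a median of -0.42. Of 23 lysosomal genes only Cd63 was lower, with a median of -0.04.

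Few cell cycle genes differed. Of 24 S phase genes Rrm2 (24.6 and 9.47 CPM) and Uhrf1 (69.7 and 32.6) were at least 2-fold higher, and of 13 G2/M genes Top2a (75.6 and 34.6); no gene of either list was lower. These are 8.33% and 7.69% of the lists, beside 3.53% of all genes, and the medians were 0.16 and 0.34. In cells with few cycle UMIs the log2 ratio of Rrm2 went from 1.38 to -0.44. Among 13 cyclin and Cdk genes Ccnd3 and Cdk6 (393 and 173) were higher, with a median of 0.08, while Ccnd2 (408 and 362) and Cdk4 (402 and 385) were level. In thinned cells, 37.4% of CLP (34.3 to 40.7) and 34.2% of LMPP (30.3 to 38.3) had at least 3 S phase UMIs, and 12.004% (9.96 to 14.3) and 8.73% (6.55 to 11.3) at least 3 G2/M UMIs. These intervals overlap.

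Adhesion, cytoskeleton and chromatin genes held single members that stood out. The 14 homing genes had a median of 0.19, and 3 were at least 2-fold higher, among them the integrin Itga4 (104 and 43.6 CPM) and Cxcr4, the receptor that keeps precursors in marrow niches (47.1 and 23.4). Marcks was higher (60.0 and 15.9) and Vim lower (77.6 and 159.7) among 27 cytoskeletal genes, with a median of -0.11. Of 27 chromatin genes Hdac7 (100.7 and 43.8), Uhrf1, Suz12 and Satb1 were higher, with a median of 0.25. In the BCL2 family Bcl2 was higher and the death gene Bbc3 lower (7.88 and 24.2) among 8, with a median of -0.06. The Gimap list had 3 of 7 higher and a median of 0.68, and the 3 measured sex-linked transcripts a median of 0.26.

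Of genes at 10 CPM or more in a library, 5 had no UMI in the other. Pax5 and the unnamed transcript 6330403A02Rik (21.95 CPM in 109 cells) were seen in CLP and had no UMI in LMPP. Procr, the platelet chemokine Pf4 (11.2 CPM in 34 cells) and the chemokine Cxcl2 (10.7 CPM in 13 cells) were seen in LMPP and had none in CLP. The top 5 LMPP cells held 72.1% of the Cxcl2 UMIs.

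Shares of cells were compared after thinning each cell to 2000 UMIs, which left 908 CLP, 573 LMPP and 1070 pro-B cells and dropped 40, 6 and 36 shallower ones. Ebf1 was then detected in 41.1% of CLP cells, 0.349% of LMPP cells and 98.7% of pro-B cells; without thinning the CLP and LMPP shares were 57.0% and 1.04%. Rag1 was detected in 10.4% of CLP, 0.349% of LMPP and 18.6% of pro-B cells, and Cd79a in 12.996%, 0.175% and 96.7%. The LMPP share comes from another droplet run and does not measure the free RNA of the CLP run. Dntt was detected in 90.9% of CLP and 42.1% of LMPP cells, Ly6d in 47.8% and 3.32%, and Il7r in 23.9% and 0.873%. In CLP, then, Dntt was detected in most cells, whereas Rag1 and Cd79a marked a minority at this depth.

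For the lower genes pro-B cells, with a median of 5687.5 UMIs a cell before thinning, are the population that should lack them. Their share does not measure the free RNA of the CLP and LMPP runs, which was not estimated. Prtn3 was detected in 42.8% of LMPP, 1.65% of CLP and 0% of pro-B cells, Hlf in 20.1%, 1.54% and 0%, and Mecom in 15.7%, 0.881% and 0%. Cd34 was detected in 63.0% of LMPP and 28.5% of CLP cells, and Ifitm1 in 57.4% and 9.91%. Meis1 was detected in 24.8% and 10.7%, Spi1 in 32.1% and 18.9%, and Flt3 in 41.7% and 43.4%. Mpo, the enzyme of neutrophil granules, was detected in 10.6% of LMPP (8.24 to 13.5) and 11.9% of CLP cells (9.86 to 14.2), with no pro-B cell. So Prtn3 and Mpo, both granule genes, differed in how CLP compared with LMPP.

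**Figure D4:**
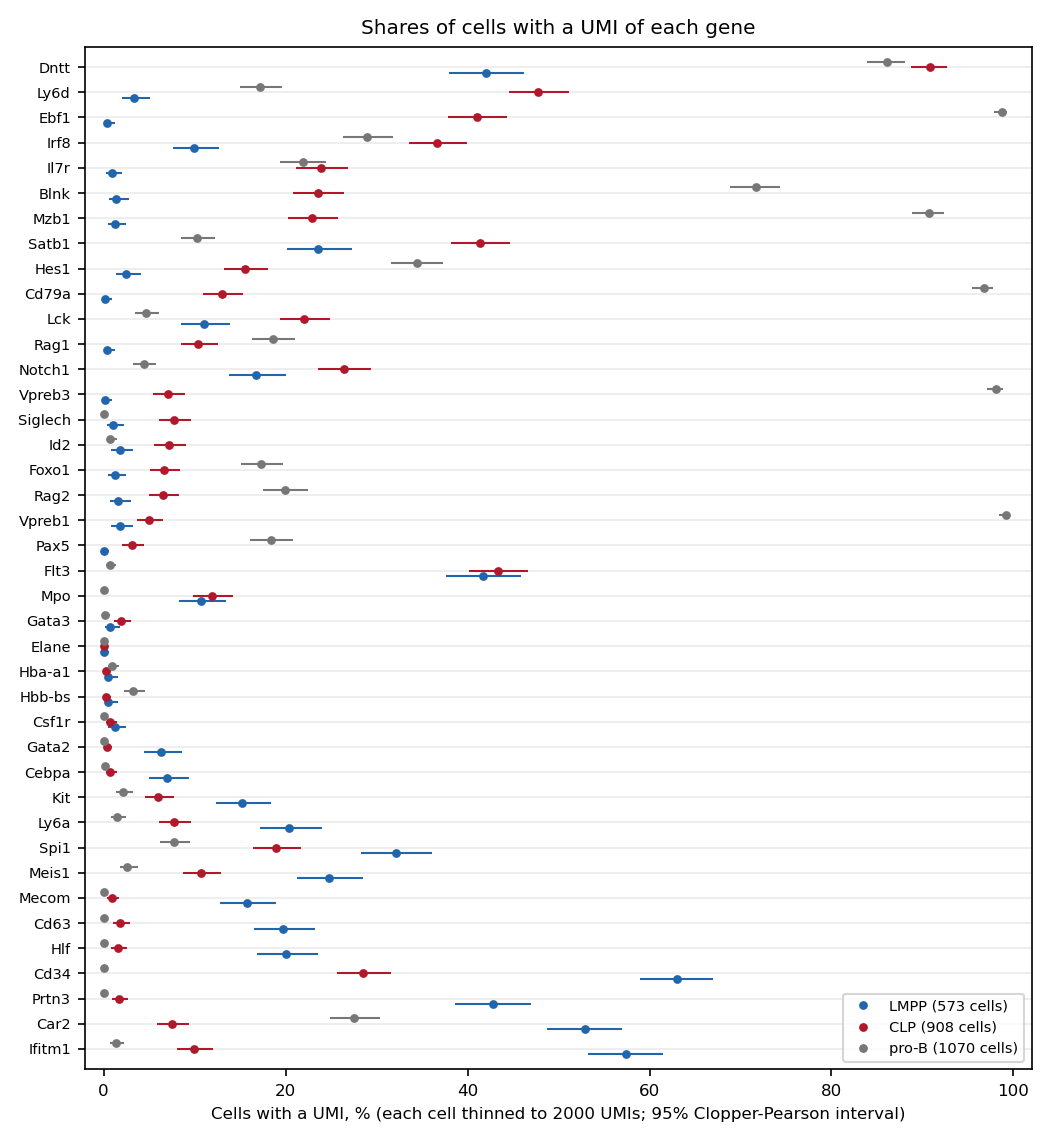
Percent of cells with at least 1 UMI of each gene after thinning to 2000 UMIs a cell, for LMPP, CLP and pro-B (points) with exact 95% binomial intervals (bars). Ebf1 goes from 0.349% to 41.1% to 98.7%, whereas Prtn3 goes from 42.8% to 1.65% to 0%.

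Detection of gene pairs in the same thinned cell was compared with the product of the shares of each gene alone. In CLP, Ebf1 with Cd79a was seen in 11.5% of cells (9.46 to 13.7) against a product of 5.34%, and 88.1% of the cells with Cd79a also had Ebf1. Ebf1 with Rag1 was seen in 6.94% (5.37 to 8.79) against 4.25%, and Ebf1 with Ly6d in 24.6% (21.8 to 27.5) against 19.6%. These pairs lay above the product. Ebf1 with Mpo was seen in 4.85% (3.54 to 6.45) against 4.89%, and Ebf1 with Cd34 in 8.70% (6.95 to 10.7) against 11.7%. In LMPP, Dntt with Prtn3 was seen in 13.1% (10.4 to 16.1) against 17.98%, and Dntt with Hlf in 5.58% (3.85 to 7.79) against 8.44%. Dntt with Mpo was seen in 5.41% (3.71 to 7.59) against 4.48%, and Dntt with Cebpa in 2.97% (1.74 to 4.71) against 2.94%. Hlf with Prtn3 was seen in 8.90% (6.70 to 11.5) against 8.58%, but at 4000 UMIs a cell in 25.2% (21.5 to 29.2) against 21.2% and without thinning in 38.7% (34.7 to 42.8) against 33.6%. Within LMPP, Dntt with Prtn3 or Hlf thus lay below the product at 2000 UMIs. At 4000 UMIs Dntt with Prtn3 was seen in 28.1% (24.3 to 32.2) against 33.4%, and Dntt with Hlf in 15.4% (12.4 to 18.8) against 19.1%. Without thinning, Dntt with Prtn3 was seen in 43.4% (39.3 to 47.5) against 45.99%, a product within the interval. Dntt with Hlf was then seen in 26.4% (22.9 to 30.2) against 30.8%. Each interval is that of the joint share alone and does not measure the distance from the product.

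UMIs were also summed over lists in each thinned cell. At least 3 UMIs of B lineage genes were found in 41.1% of CLP cells (37.9 to 44.4) and 10.8% of LMPP cells (8.397 to 13.7). The median of early lymphoid genes was 12 UMIs in CLP and 5 in LMPP, that of stem genes 8 and 11, and that of myeloid granule genes 10 and 8. In pro-B cells the median of stem genes was also 8. The granule sum was higher in CLP, opposite in sign to the list's median ratio of -0.26, and Plac8 was the most abundant of the genes that were higher. Over whole libraries the granule list summed to 5403 CPM in CLP and 4444 in LMPP, and without Plac8 the sum was lower in CLP. The 2 ranges of the stem score overlapped widely, with quartiles at 6 and 11 UMIs in CLP and at 8 and 14 in LMPP. A score of this kind is a range and not a cell type, and 291 CLP and 156 LMPP cells had 2 or 3 B lineage UMIs, near the limit.

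Each library was also clustered, and the level of each 4-fold gene was read in the 5 CLP and 6 LMPP clusters of at least 20 cells; the clusters were made from these genes, so this is a description. Ebf1 ran from 29.4 to 1118 CPM over CLP clusters, with the highest value in the 262 cells led by Vpreb2, Cd79a and Vpreb3. In LMPP it ran from 0 to 73.9 CPM, the highest in a cluster of 65 cells with Ebf1, Ccr9 and Hes1 among its leading genes. All of LMPP held only 32 Ebf1 UMIs in 6 cells, with 96.9% of them in 5 cells. The B lineage genes were thus uneven inside CLP. For 13 of the 35 higher genes every CLP cluster lay above every LMPP cluster. Among them were Il7r (90.3 to 186 against 0 to 47.8 CPM), Mzb1, Xrcc6, Arpp21, Cmah, Gphn, Mgst2, Arl5c and Myl4. The others were the processed pseudogenes Rps18-ps3, Rpl7a-ps5, Gm10263 and Gm10269, which are uncertain as measures of expression. For 11 of the 23 lower genes every CLP cluster lay below every LMPP cluster, among them Prtn3 (1.22 to 13.1 against 65.8 to 429), Car2 (11.3 to 60.8 against 65.8 to 707), Cd63, Nkx2-3 and Csf3r. The same count over all genes was not made, so the counts of 13 and 11 have no background to be read against. Clusters of 1 library are parts of that library and not replicates. For Ly6d, CLP clusters ran from 388 to 4904 CPM, the highest in the 61 cells with plasmacytoid dendritic markers. LMPP clusters ran from 3.70 to 1148 CPM for Ly6d, the highest in 21 cells led by Ly6d, Irf8 and Ly6c2. Hlf ran from 1.64 to 15.4 CPM in CLP clusters of at least 20 cells and from 5.98 to 239.7 in LMPP. Dntt ran from 739 to 2068 and from 132 to 1047 CPM. Mpo overlapped, at 9.03 to 83.7 and 25.5 to 120.2 CPM.

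Markers of other cell types were summed as a check on both sorts. Monocyte markers stood at 33.9 CPM in CLP and 54.1 in LMPP (4 and 2 of 10 at 0), megakaryocyte markers at 4.36 and 22.7 (3 and 2 of 7 at 0), and stroma and endothelial markers at 47.8 and 44.8. Neutrophil markers stood at 11.2 and 313 CPM, with 4 and 5 of 10 at 0, and Prtn3 made up nearly all of the LMPP sum. Erythroid markers stood at 4.86 and 52.8 CPM (3 and 4 of 9 at 0). B cell markers stood at 369 and 45.6 CPM (0 and 3 of 8 at 0). Conventional dendritic, eosinophil, mast cell and plasma cell markers reached at most 40.9 CPM in either library.

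Ribosomal sequence copies made up the last group. Of the 35 higher entries, 4 are annotated by GENCODE as processed pseudogenes: Rps18-ps3 (1238 CPM in CLP, 150.2 in LMPP and 41.5 in pro-B cells), Rpl7a-ps5 (186, 41.8 and 29.3), Gm10263 (422, 45.1 and 13.7) and Gm10269 (302, 35.6 and 9.502). This set was followed up after its values were seen. Of 34 measured genes that GENCODE annotates as processed pseudogenes, 11 (32.4%) were at least 2-fold higher in CLP, beside 3.53% of all genes, and 1 was lower, Gm7676. Their median log2 ratio was 0.64. Reads of a processed pseudogene can come from its parent gene, and the parents were level: Rps18 stood at 7486 CPM in CLP and 7927 in LMPP, a log2 ratio of -0.08 against 3.04 for Rps18-ps3. Rpl13 had a ratio of -0.14 against 1.70 for Rpl13-ps3, and Rpl7a -0.08 against 2.15 for Rpl7a-ps5. Not every copy followed, as Rps2-ps6 had a ratio of -0.40 and Rpl36-ps3 one of 0.20. Over clusters of at least 20 cells Rps18-ps3 stood at 879 to 1320 CPM in CLP, 138 to 191 in LMPP and 28.2 to 56.8 in pro-B cells. Rpl13-ps3 stood at 942 to 1301, 311 to 421 and 148 to 221 CPM. Clusters of CLP differed too, with Rps18-ps3 lowest at 879 (793 to 970) in the 61 cells with plasmacytoid dendritic markers. In the CLP cluster of 13 cells, outside these ranges by size, Rps18-ps3 stood at 1059 CPM. Rpl7a-ps5 had 2 UMIs there (30.7 CPM, 3.72 to 111). The cause was not tested, and these entries are uncertain as measures of expression.

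**Figure D5:**
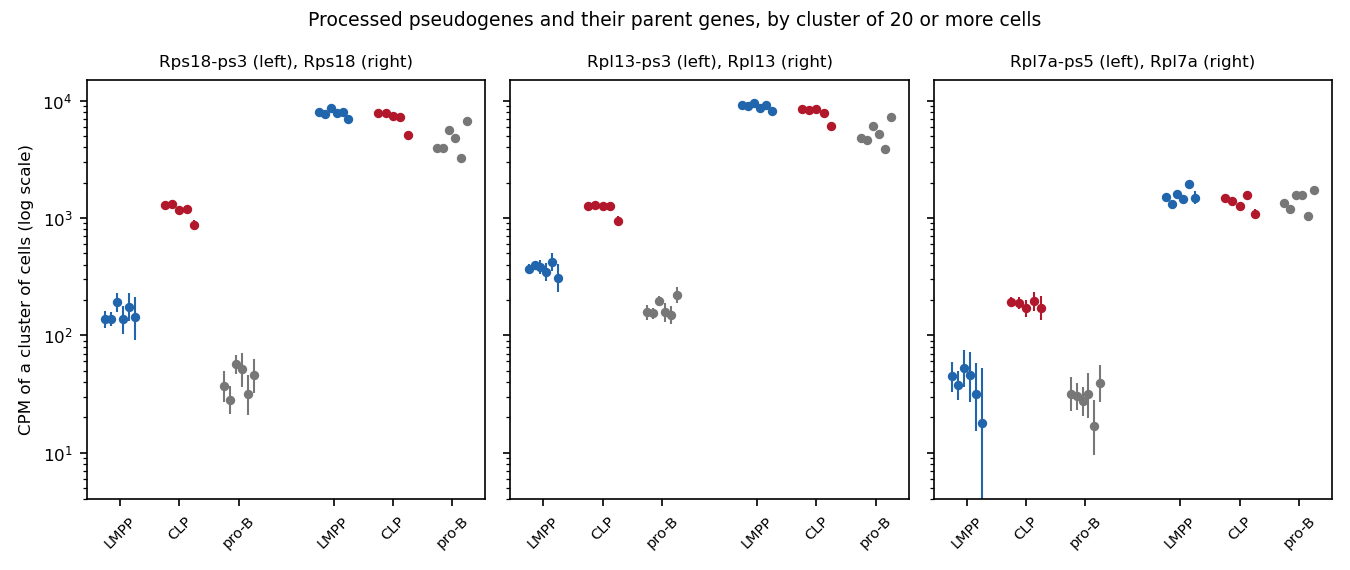
CPM (y axis, log scale) of ribosomal processed pseudogenes and of their parent genes in each cluster of at least 20 cells (points, with 95% counting intervals as bars), by library. Rps18-ps3 lies at 879 to 1320 CPM in every CLP cluster and at 138 to 191 in every LMPP cluster, while Rps18 overlaps between the libraries.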

How the data were processed

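Single-cell RNA was captured with 10x Chromium 3′ chemistry, per the labels' protocols. The authors deposited whole-number UMI counts per gene and barcode for each library, not normalized; Cell Ranger and the build mm10 are named in the submitters' processing notes, and for its version, annotation and cell calling the sources used here give nothing. The 3 deposited matrices hold 27998 genes, of which 15237 had a UMI in CLP or LMPP.

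Barcodes needed at least 500 genes, with mitochondrial UMIs at 10% or less, and UMI counts were summed by library and scaled to CPM. No edgeR or DESeq2 fit was possible with 1 library a group. A gene was called at a ratio of 4 or more where either library reached 50 CPM, or, for lists, at a ratio of 2 or more with a mean of 10 CPM or more. Members and lists were chosen with earlier results of these data known. Named were all 4-fold genes (ribosomal genes and unnamed models apart), the label and sort genes, up to 6 measured members of highest level and the extremes of each of 37 lists, the genes whose shares are given, and genes with no UMI in 1 library. Other list members, the models and the pseudogenes were named after their values were seen. Immunoglobulin chain genes were not analysed here, and some genes that the rule names are not reported here. The ratio interval was tested on simulated data. Clusters came from each library alone (scanpy 1.11.5, 2000 variable genes, 20 components, 15 neighbours, Leiden resolution 0.5), with Scrublet at an expected doublet rate of 1%. Clusters were named from 17 marker lists. Genes were matched by identifier to GENCODE M21, which found all 58 called genes. Python 3.11.15, NumPy 2.4.6, SciPy 1.17.1 and pandas 2.3.3 were used. Alternatives covered scaling, filters on genes and cells, doublets, clusters, cell cycle and thinning depth.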

Additional observations from a re-analysis of the deposited data

How the results depend on the processing

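No paired analysis was possible because each population had 1 library. Scaling moved every log2 ratio by -0.03 or 0.01. Over the scalings and choices of cells tried, 34 to 46 genes were at least 4-fold higher and 23 to 26 at least 4-fold lower. Of the 35 and 23 genes reported, Gimap4 was lost without doublet calls or with a stricter filter on cells, Ctla2b was lost in cells with few cycle UMIs, and the others kept their calls. Filters on low values changed the counts most. With no filter, 317 genes were 4-fold higher and 359 lower, 1148 were 2-fold higher and 1180 lower, and of processed pseudogenes 24 were higher and 3 lower. At 100 CPM or more the 4-fold counts were 21 and 11, and at a mean of 50 CPM or more the 2-fold counts were 84 and 46. The log2 ratio of Gata3 was -0.75 when clusters named dendritic-like or innate-like were dropped from both libraries and -0.68 when they were dropped from CLP alone, and that of Rrm2 was -0.44 in cells with few cycle UMIs, where those cells were chosen for lacking such genes. At a mean of 50 CPM or more, 12 of 36 list medians moved beyond their interval. They were 0.24 for the pre-B receptor, 1.26 for recombination, 0.42 for T and innate, -0.30 for Notch, -0.41 for stem factors, -0.18 for stem surface, -0.06 for granule genes, 0.11 for myeloid factors, 0.61 for dendritic, 0.42 for cyclins, 0.72 for homing and 0.48 for Gimap genes. With no filter 5 of 37 moved, and none of these 5 changed sign. In cells with few cycle UMIs the pre-B receptor median was 2.15. Shares of cells depended on depth: of 80 shares, 56 moved beyond their interval at 4000 UMIs a cell and 65 without thinning. Rag1 in CLP, for 1, was detected in 10.4% of cells at 2000 UMIs and in 23.6% without thinning. The alternatives of cells without the 2 clusters in CLP alone, and the pseudogene counts, were added after seeing the data. A single library a side limits every comparison, and depth limits genes under about 10 CPM.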
